A study of Mus musculus with 6 samples.

Results

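Transcript levels of 10 genes that mark endothelial cells, the cells lining blood vessels, were followed in cells of the E12.5 mouse spinal cord after sorting. The genes were Kdr, Flt1, Tek, Tie1, Cdh5, Cldn5, Esam, Pecam1, Emcn and Egfl7, named as a list and not by their values. Every probe assigned to them through its RefSeq accession was taken, which gave 11 of the 55681 probes on the array and 21 spots. All 10 genes passed the filter on dim probes (signal well above background on 2 or more of the 6 arrays), as 14918 genes did in all. The embryos carried Hb9::GFP, a reporter driven by the promoter of the motor neuron gene Mnx1, and flow cytometry separated GFP-on cells (labelled motor neurons) from GFP-off cells (all other spinal cord cells). GFP-on cells labelled mir-17~92 -/- (KO-labelled) and GFP-on cells labelled WT (mir-17~92+/+) had 2 arrays each, and GFP-off cells had 1 array of each label. The labels do not say how the deletion was made, how many embryos stand behind an array, or that replicates came from separate embryos, so p-values measure only the spread between these arrays, which may be technical.

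Vessels grow into the spinal cord from a plexus around it, drawn by VEGF-A released from neural cells. Endothelial cells receive VEGF-A through the receptor tyrosine kinases Kdr and Flt1, receive angiopoietins through Tek with its partner Tie1, and hold together through adherens junctions built on Cdh5 and tight junctions that contain Cldn5 and Esam. Neurons are not a usual source of Cdh5, Cldn5 or Tie1. In these bulk samples, fewer endothelial cells and less RNA per endothelial cell cannot be told apart.

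The locus that separates the genotype labels makes 6 main mature microRNAs, which act on messenger RNAs through their seeds, bases 2 to 8. The cluster's microRNAs are also known from endothelial cells, where they are studied as regulators of vessel growth. The sequences are shown to give what the KO label states as lost. They come from RefSeq (GRCm38.p6, plus strand, chr14:115043684-115044496), 5′ to 3′, with the seed in capitals. They share 4 seeds: miR-17-5p and miR-20a-5p have the same one, miR-19a-3p and miR-19b-3p have the same one, and miR-18a-5p and miR-92a-3p have one each.
mmu-miR-17-5p: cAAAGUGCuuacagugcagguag
mmu-miR-20a-5p: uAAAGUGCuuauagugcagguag
mmu-miR-18a-5p: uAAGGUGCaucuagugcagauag
mmu-miR-19a-3p: uGUGCAAAucuaugcaaaacuga
mmu-miR-19b-3p: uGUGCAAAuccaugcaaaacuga
mmu-miR-92a-3p: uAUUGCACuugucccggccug

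Levels below are log2 processed signals minus the array's own 75th percentile, so 0 is the level of that percentile; levels of different probes are not compared. The KO-labelled arrays went against their label for the host transcript Mir17hg, which read 4.55 and 4.79 on the KO-labelled GFP-on arrays, against -2.38 (not well above background) and 2.73 on the WT-labelled GFP-on arrays. In GFP-off cells it read 4.62 under the KO label and -1.23 under the WT label. Whether its probe lies in the deleted stretch is not given in the sources used here, so groups are named by their labels throughout. Chat, which makes acetylcholine, averaged -0.46 ± 0.38 in GFP-on cells (SD, n = 4) and -3.63 ± 0.07 in GFP-off cells (SD, n = 2), and was higher in GFP-on cells (limma adjusted p = 0.0175). Mnx1 itself had no matched probe. Both WT-labelled GFP-on arrays and the first KO-labelled GFP-on array were dim, with a 75th percentile signal of 48.4 to 64.5, against 340 to 549 on the other 3, and 41.0% to 44.0% of their spots were well above background, against 58.9% to 62.3%. The second WT-labelled GFP-on array stood furthest from the rest, with correlations of 0.71 to 0.80 with the 4 arrays outside its group over 10137 genes measured on all arrays. Both KO-labelled GFP-on arrays were in row 1 of the slide and all others in row 2, so in GFP-on cells genotype label and slide row cannot be told apart. With 6 arrays, their small number limits how precise each value is.

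The endothelial genes did not move as 1 block between the arrays. Kdr, Flt1, Esam and Egfl7 were well above background on all 6 arrays, whereas Cdh5 was above it on 4 and Tek on 3. Of the 10 genes, 7 and 10 were above background on the KO-labelled GFP-on arrays, 5 and 8 on the WT-labelled GFP-on arrays, and 10 on each GFP-off array. Over the 45 pairs of the 10 genes, the correlation of levels across the 6 arrays ran from -0.92 to 0.94 with a median of 0.21, and 28 pairs were above 0; the points share their arrays and each array's scaling.

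**Figure D1:**
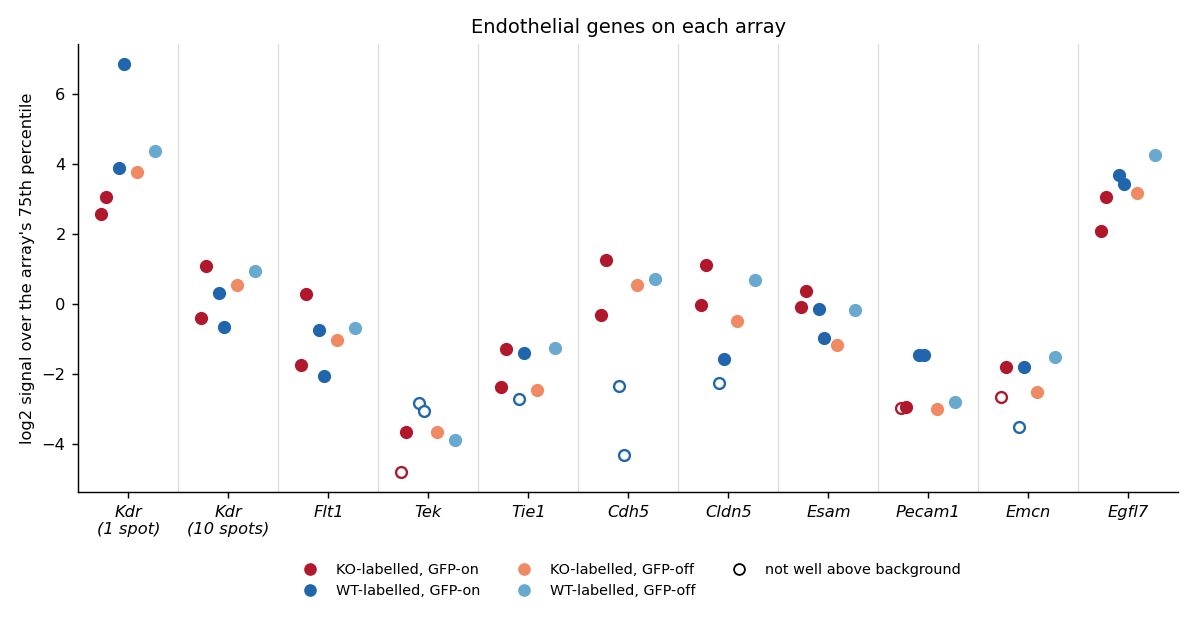
Level of each endothelial probe on each array, as log2 signal over the array's 75th percentile; each point is 1 array, coloured by group, and open points were not well above background. Cdh5 and Cldn5 were lowest on the WT-labelled GFP-on arrays, and Pecam1 was highest there.

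The first comparison asked which endothelial genes differed between the genotype labels in GFP-on cells. Cdh5 and Cldn5 were higher and Pecam1 was lower in KO-labelled GFP-on cells, and the other 7 genes did not pass the threshold (limma, adjusted p under 0.05). Across all genes tested, 15.8% were called higher and 7.23% lower by the same test, so 2 of 10 higher and 1 of 10 lower is close to the background. That background depends on the scaling: 68.6% of all calls were higher here, 44.0% with each array scaled to its median, 88.9% with quantile scaling and 80.2% with normexp background correction. The median difference of the 10 genes was 0.32 on the log2 scale and that of all genes was 0.34. Groups did not overlap for 7 of the 10 genes, 3 higher and 4 lower under the KO label; over all genes, 41.3% were without overlap and higher and 26% were without overlap and lower.

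Cdh5, VE-cadherin of adherens junctions, had the largest difference among the 10 genes. It read -0.31 and 1.24 on the KO-labelled GFP-on arrays, against -2.33 and -4.29 on the WT-labelled ones, where neither spot was well above background. The groups did not overlap. The fitted log2 difference was 3.78 ± 0.76 (SE, n = 2 each, limma adjusted p = 0.013), with a 95% interval of 2.06 to 5.50. With dim WT-labelled spots raised to a floor, the level was 6.37-fold higher under the KO label. This floored fold compares group means. Per WT-labelled array, it takes the higher of the spot's own signal and the lowest signal called well above background. It leaves out the spread between replicates, so it is not a lower limit. Of 16 other ways of processing the arrays, 11 kept the call, and limma adjusted p ranged from 2.47e-06 to 0.999. The lowest came with the replicate number as a block, a fit that gave all 10 genes the same SE, 0.68. With normexp background correction the difference was 1.17, and with the level of the spike-in controls as a covariate it was -0.034. That spike-in level was 6.03 and 5.13 on the KO-labelled GFP-on arrays, against 7.06 and 7.52 on the WT-labelled ones. It separated the labels there, so its part and that of the label can hardly be told apart.

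Cldn5, a claudin that seals tight junctions and is abundant in the endothelium of the blood-brain barrier, moved the same way. It read -0.03 and 1.11 on the KO-labelled GFP-on arrays, against -2.25 (not well above background) and -1.58 on the WT-labelled ones, with no overlap. The log2 difference was 2.45 ± 0.56 (SE, n = 2 each, limma adjusted p = 0.0191). The call was kept by 10 of 16 alternatives, with limma adjusted p up to 0.999. Without the second KO-labelled array the difference was 1.89 and the call was lost. That fit gave all 10 genes the same SE, 0.90.

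Esam, an adhesion molecule of endothelial tight junctions and platelets, was the third junction gene. It read -0.09 and 0.37 on the KO-labelled GFP-on arrays, against -0.15 and -0.98 on the WT-labelled ones. The groups did not overlap, but the nearest arrays lay close together. The log2 difference was 0.70 with a 95% interval of -0.47 to 1.87 and did not pass the threshold (limma adjusted p = 0.348).

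Pecam1, an adhesion molecule at endothelial contacts that platelets and leukocytes also carry, went the other way. It read -2.95 (not well above background) and -2.92 on the KO-labelled GFP-on arrays, against -1.44 and -1.44 on the WT-labelled ones. The groups did not overlap, and the arrays of each group were nearly equal. The log2 difference was -1.49 ± 0.46 (SE, n = 2 each, limma adjusted p = 0.0479). The probe sits on 2 spots per array, whose SD within an array was 0.17 and 0.27 on the KO-labelled GFP-on arrays and 0.26 and 0.41 on the WT-labelled ones, wider than the spread between replicates. The call was kept by 7 of 16 alternatives, with limma adjusted p up to 0.999. Without the first or the second KO-labelled array the difference hardly moved (-1.48 and -1.51), but the call was lost. Both fits gave all 10 genes the same SE, 0.90, against 0.46 for Pecam1 in the main fit.

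Kdr, the main signalling receptor for VEGF-A, gave a different order of the arrays with each of its probes. The brighter probe, on 1 spot, read 2.58 and 3.05 on the KO-labelled GFP-on arrays, against 3.87 and 6.83 on the WT-labelled ones, and 3.77 and 4.37 in KO-labelled and WT-labelled GFP-off cells. Its 6.83 on the second WT-labelled array was far above the other 5 values. The log2 difference in GFP-on cells was -2.54 with a 95% interval of -4.48 to -0.60 and did not pass the threshold (limma adjusted p = 0.0615). The other probe is printed on 10 spots of every array. The SD of the spots within an array was 0.05 to 0.12 on the log2 scale, so spot noise was small against the differences between arrays. By that probe Kdr read -0.38 and 1.10 on the KO-labelled GFP-on arrays, against 0.32 and -0.65 on the WT-labelled ones, and the groups overlapped. Its difference was 0.52 ± 0.65 (SE, n = 2 each, limma adjusted p = 0.577), of the opposite sign. On the second WT-labelled array the same gene was thus at its highest by one probe and at its lowest by the other. By the bright probe, the difference was -1.06 without the second WT-labelled array, which carried the 6.83, and -4.02 without the first one. Without the second KO-labelled array it was -2.77, in a fit that gave all 10 genes the same SE, 0.90. By this probe or the other, Kdr passed under 6 of its 17 alternatives, with limma adjusted p up to 0.999.

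**Figure D2:**
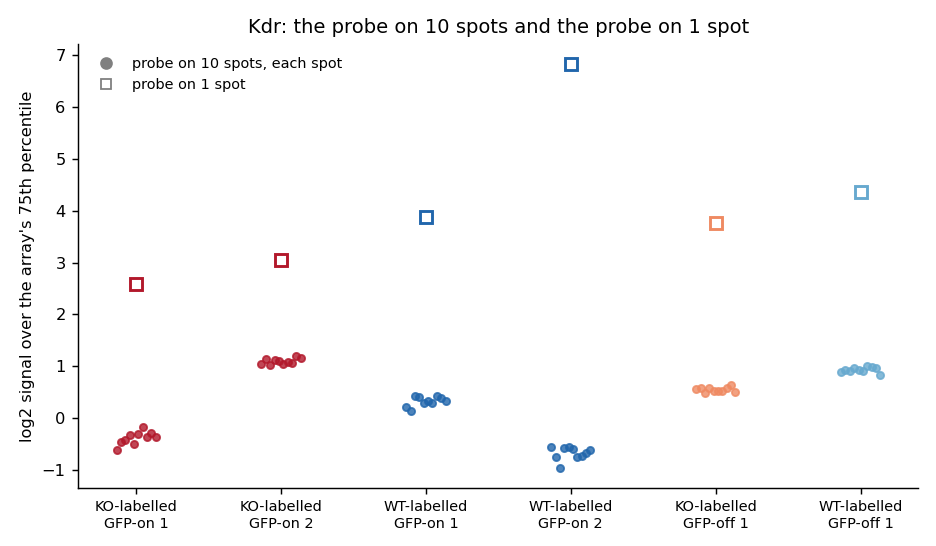
Kdr on each array by its 2 probes, as log2 signal over the array's 75th percentile; filled points are the 10 spots of one probe and open squares the single spot of the other. The 10 spots cluster tightly on each array. On the second WT-labelled GFP-on array the probes part, with the square at 6.83 and the unflagged spots averaging -0.65. On that array 1 of the 10 spots shown was flagged and left out of the average.

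Flt1, which binds VEGF-A and can hold it away from Kdr, varied within both groups. It read -1.75 and 0.29 on the KO-labelled GFP-on arrays, against -0.75 and -2.04 on the WT-labelled ones, with overlap. The log2 difference was 0.67 with a 95% interval of -1.01 to 2.35 (limma adjusted p = 0.54). The replicates of the KO label differed by 2.03, more than the groups did.

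Of the angiopoietin receptors, Tek read -4.77 (not well above background) and -3.64 on the KO-labelled GFP-on arrays, against -2.82 and -3.03 on the WT-labelled ones, where neither was well above background. Its log2 difference of -1.28 (95% interval -2.50 to -0.06, limma adjusted p = 0.116) thus rests largely on signals near background. Tie1, the partner receptor of Tek, read -2.37 and -1.28 under the KO label and -2.71 (not well above background) and -1.38 under the WT label. The groups overlapped, with a log2 difference of 0.22 and a 95% interval of -1.19 to 1.63 (limma adjusted p = 0.818).

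Emcn, a sialoglycoprotein of capillary and venous endothelium, read -2.66 (not well above background) and -1.80 on the KO-labelled GFP-on arrays, against -3.49 (not well above background) and -1.80 on the WT-labelled ones. The groups overlapped, and the log2 difference was 0.41 with a 95% interval of -1.06 to 1.88 (limma adjusted p = 0.671). Egfl7, a protein that endothelial cells secrete into the vessel wall, read 2.09 and 3.04 under the KO label, against 3.67 and 3.43 under the WT label. It was lower on both KO-labelled arrays, but the log2 difference of -0.98 (95% interval -2.16 to 0.19) did not pass the threshold (limma adjusted p = 0.196). Scaling each array to its median instead moves every difference of this comparison by -0.57 and puts Tie1 at -0.35 and Emcn at -0.16. Cdh5 (3.21, limma adjusted p = 0.0472) and Pecam1 (-2.07, limma adjusted p = 0.0351) kept their calls under that scaling. Cldn5 stayed positive but lost its call (1.88, limma adjusted p = 0.0662).

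**Figure D3:**
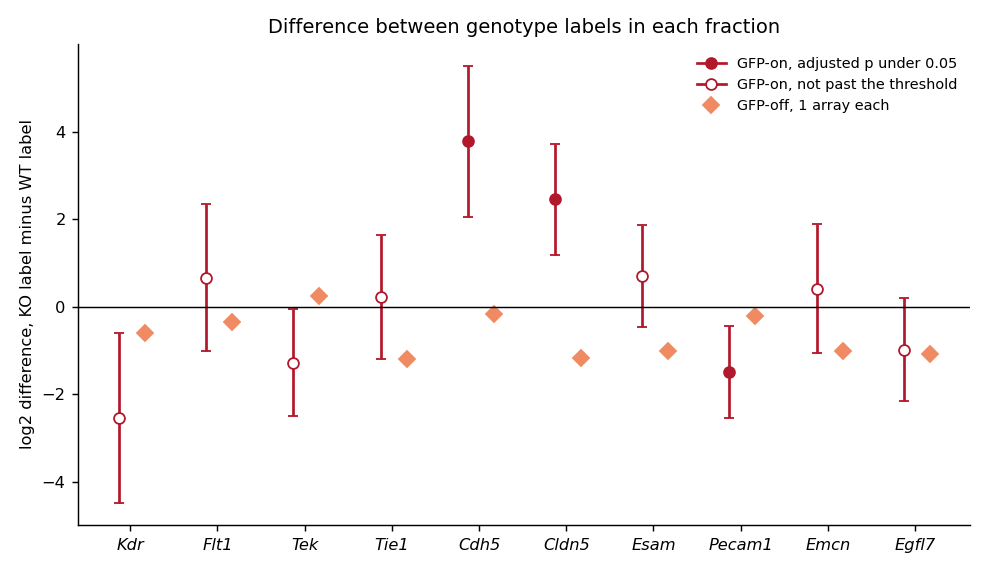
Difference between the genotype labels for each endothelial gene, KO label minus WT label on the log2 scale; circles give GFP-on cells with their 95% interval (2 arrays each, filled where limma's adjusted p was under 0.05) and diamonds GFP-off cells (1 array each, no test). Cdh5 at 3.78 and Cldn5 at 2.45 stand above 0 in GFP-on cells, and 9 of 10 diamonds lie below 0. Over all genes, 6175 of 14918 were lower under the KO label in GFP-off cells.

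Other genes of the vessel were counted in the same comparison, where 15.8% of all genes were called higher and 7.23% lower. The median difference of all genes was 0.34, and these shares depend on the scaling. Of 22 further endothelial genes tested, 1 rose and 1 fell in KO-labelled GFP-on cells, with a median difference of -0.27. The gene that rose was Eng, a co-receptor for TGF-beta family ligands, 3.21-fold higher by the floored fold (limma adjusted p = 0.00983). Myct1 fell by 1.92 on the log2 scale (limma adjusted p = 0.0273), with 1 of 2 KO-labelled arrays well above background. Of 15 genes of the neural barrier endothelium, 4 rose and 1 fell. Itm2a had the largest difference among those called, 4.98 (limma adjusted p = 0.00542), and was well above background on both arrays of each label. Slc7a5, a transporter of large neutral amino acids, was 5.92-fold higher by the floored fold (limma adjusted p = 0.0115). Foxf2, a transcription factor known from brain pericytes that was counted in the barrier list, rose with a fitted difference of 2.42 (limma adjusted p = 0.0421). For Foxf2, 1 of 2 WT-labelled arrays was well above background. Of 18 endothelial transcription factors, 5 rose and 2 fell. Ets2 had the largest difference among those called, 2.96 (limma adjusted p = 0.00832), and was well above background on both arrays of each label. Sox18 was 1.49-fold higher by the floored fold (limma adjusted p = 0.0147).

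Of 10 vascular growth ligands, 4 rose and none fell in KO-labelled GFP-on cells, with a median of 1.50. Among all genes, 15.8% rose and 7.23% fell, with a median of 0.34. Vegfa, the ligand of Kdr and Flt1, read 1.65 and 2.68 on the KO-labelled arrays, against 0.16 and -0.60 on the WT-labelled ones (difference 2.38 ± 0.55, SE, n = 2 each, limma adjusted p = 0.0202). By the floored fold, Angpt2, an angiopoietin that binds Tek, was 3.54-fold higher (limma adjusted p = 0.00724). Apln, which tip cells of growing vessels release, was 2.29-fold higher by the same measure (limma adjusted p = 0.0115). Of 7 further receptors and Notch genes, 2 rose and 1 fell. Nrp1, a VEGF-A co-receptor, was 5.69-fold higher by the floored fold (limma adjusted p = 0.00538). Notch4 was higher with a fitted difference of 2.41 (limma adjusted p = 0.0135), with 1 of 2 WT-labelled arrays well above background. Notch1 fell by 2.03 on the log2 scale (limma adjusted p = 0.0297). Neurons also express Vegfa, Nrp1 and Notch1.

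Genes of other cell types moved in the same comparison, in which 15.8% of all genes rose and 7.23% fell, with a median difference of 0.34. Of 14 pericyte and mural genes, 3 rose and none fell. Rgs5, a marker of brain pericytes, was 9.61-fold higher by the floored fold (limma adjusted p = 0.00726). The summed signal of the 14 genes is given in units of the array's 75th percentile. It was 88.1 and 126 on the KO-labelled GFP-on arrays, against 173 and 65.5 on the WT-labelled ones. Without the brightest gene of that list, the sum was 62.1 and 74.8 under the KO label, against 117 and 53.7 under the WT label. Of 12 microglia and macrophage genes, 6 rose and 1 fell, with a median difference of 1.34, and Mrc1, Tyrobp and C1qa were not well above background on either WT-labelled array. Their summed signal was 242 and 77 under the KO label, against 486 and 779 under the WT label. Most of that sum was 1 probe, that of Itgam, an integrin of myeloid cells named here after its values were seen; without it the sum was 27.3 and 29.5 under the KO label, against 9.75 and 14.3 under the WT label. Of 11 motor neuron genes, 4 rose and none fell. Their part in the differences of Cdh5, Cldn5 and Pecam1 was not tested.

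The second comparison asked whether the sort left endothelial transcripts in the GFP-off fraction. In the sample descriptions, the first GFP-on replicate and the GFP-off array of each label share a tag. Whether the tag marks the same embryo or litter is not stated, and the fractions were fitted as unpaired. None of the 10 genes differed between GFP-on and GFP-off cells at an adjusted p under 0.05, and none had an unadjusted p under 0.05 either (limma, genotype label as a covariate). Over all genes, 1.54% were called higher and 0.744% lower in GFP-on cells (67.4% of calls higher, 52.2% with normexp background correction). For all 10 genes the levels of the fractions overlapped, whereas 27.7% of all genes showed no overlap in one direction or the other. The median difference of the 10 genes was -0.14, and that of all genes was -0.21.

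Cdh5 averaged -1.42 ± 2.41 in GFP-on cells (SD, n = 4) and 0.64 ± 0.11 in GFP-off cells (SD, n = 2). Its difference of -2.06 had a 95% interval of -4.16 to 0.04 (limma adjusted p = 0.234), and did not pass the threshold. It passed without the second KO-labelled GFP-on array (-2.67, limma adjusted p = 0.0461) and without the KO-labelled GFP-off array (-4.03, limma adjusted p = 0.0442), and without the WT-labelled GFP-off array the difference was -0.089 (limma adjusted p = 1). Of 17 alternatives, 2 passed, and adjusted p ranged from 0.0442 to 1. Cldn5 averaged -0.68 ± 1.52 in GFP-on cells (SD, n = 4) and 0.11 ± 0.82 in GFP-off cells (SD, n = 2), a difference of -0.79 (95% interval -2.54 to 0.96, limma adjusted p = 0.565). Pecam1 had the largest positive difference, 0.70 (95% interval -0.31 to 1.71, limma adjusted p = 0.378). The other 7 genes differed by -0.64 (Egfl7) to 0.46 (Esam), and each interval held 0. The interval for Egfl7 ran from -1.64 to 0.35.

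The other lists give a scale for this comparison. Of 22 further endothelial genes, none passed, with a median of 0.12, and none of 14 pericyte genes, 12 microglia genes or 15 barrier genes passed. Of 11 erythroid genes, 7 were lower in GFP-on cells, with a median of -2.59; Hbb-b2, a beta globin, averaged 1.01 ± 0.91 there (SD, n = 4) and 5.50 ± 0.51 in GFP-off cells (SD, n = 2, limma adjusted p = 0.0157). Of 11 motor neuron genes, 5 were higher, with a median of 2.50, led by Lhx4 at 3.88 (limma adjusted p = 0.00938). The difference between the endothelial genes and these lists was not tested.

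**Figure D4:**
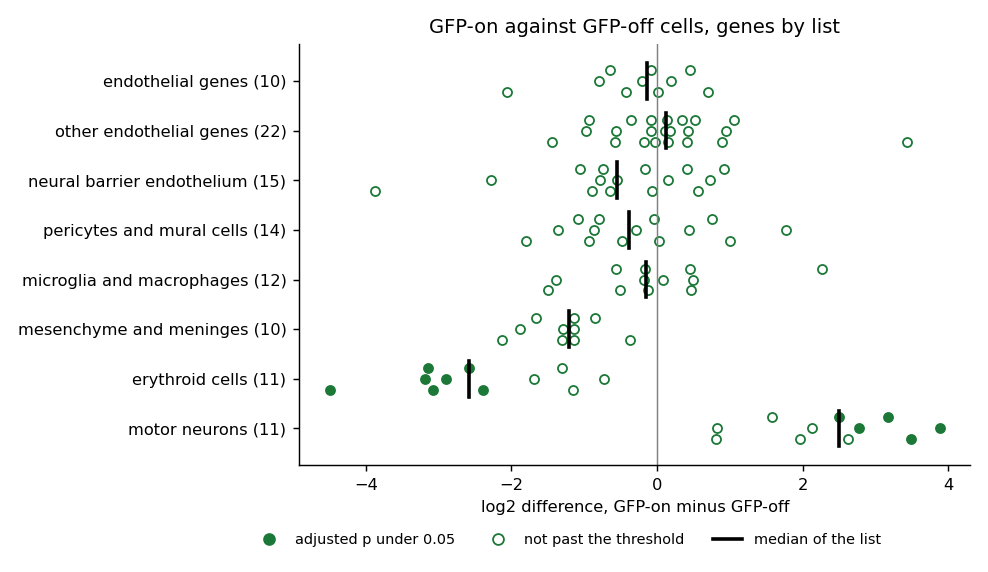
Difference between GFP-on and GFP-off cells for each gene of 8 lists, GFP-on minus GFP-off on the log2 scale; each point is 1 gene, filled where limma's adjusted p was under 0.05, and the bar is the list's median. The 10 endothelial genes spread around 0 with a median of -0.14, while erythroid genes lie to the left at -2.59 and motor neuron genes to the right at 2.50.

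Within each genotype label the fractions gave different pictures. Under the KO label, none of the 10 genes passed the threshold and none had an unadjusted p under 0.05 (limma); 0% of all genes were called there, with 1413 at an unadjusted p under 0.05. Cdh5 read -0.31 and 1.24 in GFP-on cells around the 0.56 of GFP-off cells. Under this label the GFP-on arrays were in slide row 1 and the GFP-off array in row 2, so fraction and slide row cannot be told apart. Under the WT label, where all 3 arrays lay in slide row 2, 1 of the 10 genes passed, and 5.86% of all genes were called. That gene was Cdh5, at -2.33 and -4.29 in GFP-on cells, neither well above background, against 0.72 in GFP-off cells. The difference was -4.03 ± 0.93 (SE, limma adjusted p = 0.0442). By the floored fold, which leaves out the spread between replicates, Cdh5 was 7.58-fold lower in GFP-on cells. The call was kept by 5 of 12 alternatives, with adjusted p from 8.41e-05 to 0.2; it ended, among others, under quantile scaling (-4.68, limma adjusted p = 0.124), array medians (-3.62, limma adjusted p = 0.0965), normexp (-1.32, limma adjusted p = 0.194) and with no filter on dim probes (limma adjusted p = 0.2). Cldn5 lay next, at -2.25 and -1.58 in GFP-on cells against 0.69 in GFP-off cells (difference -2.60, limma adjusted p = 0.0583); it passed without the first (-2.27, limma adjusted p = 0.0108) or the second WT-labelled GFP-on array (-2.94, limma adjusted p = 0.0041), and under none of the other 10 alternatives. These contrasts assume that the single GFP-off array varies like the GFP-on groups.

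The difference between the fractions in their genotype contrast was tested directly. Only the KO-labelled GFP-on arrays were in row 1 of the slide, so this difference and slide row cannot be told apart. None of the 10 genes passed, and 0% of all genes did, with 2 of the 10 and 1429 of all genes at an unadjusted p under 0.05 (limma). Cdh5 had a contrast 3.94 larger in GFP-on cells (limma adjusted p = 0.426, unadjusted 0.0154), and Cldn5 one 3.61 larger (limma adjusted p = 0.39, unadjusted 0.00499). Without the first WT-labelled GFP-on array, the difference was 4.92 for Cdh5, 3.28 for Cldn5 and -3.42 for Kdr. Without the second one, it was 2.96, 3.95 and -0.46. Either way a lone array was left in that group. Under every alternative that kept both WT-labelled GFP-on arrays, none of these 3 genes passed.

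The third comparison set the genotype labels side by side in GFP-off cells, 1 array each, both in slide row 2, with no replicate check. Of the 10 endothelial genes, 9 were lower in KO-labelled GFP-off cells, and 5 of them by more than 2-fold. Over all genes, 6175 of 14918 were lower and 58.6% were higher, and 3.31% were lower and 3.22% higher by more than 2-fold. The median difference of the 10 genes was -0.80, and that of all genes was 0.09. Tie1 read -2.45 under the KO label and -1.26 under the WT label, a difference of -1.19. Cldn5 read -0.47 under the KO label and 0.69 under the WT label, and Egfl7 3.17 against 4.24. Esam, at -1.18 against -0.16, and Emcn, at -2.51 against -1.51, were also more than 2-fold lower under the KO label. Tek alone was higher there, by 0.25.

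The remaining 4 genes lay between: Kdr was lower under the KO label by 0.60 on its bright probe and by 0.39 on the other, Flt1 by 0.35, Pecam1 by 0.22 and Cdh5 by 0.16. Among 22 further endothelial genes, 17 were lower under the KO label and 2 by more than 2-fold, with a median of -0.41. Of 15 barrier genes, 12 were higher, with a median of 0.25, and of 14 pericyte genes 11 were higher, with a median of 0.31. Microglia and macrophage genes were more than 2-fold higher in 7 of 12 cases, with a median of 1.11, while their summed signal was 74.7 under the KO label and 72.7 under the WT label, and 28.2 and 16.2 without Itgam. Quantile scaling left 2 endothelial genes more than 2-fold apart, and normexp background correction 1.

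Single arrays of 1 group were also set side by side, with no test. The second KO-labelled GFP-on array was higher than the first for 10 of the 10 endothelial genes, by 0.03 (Pecam1) to 2.03 (Flt1) with a median of 1.02; for all genes, 67.9% were higher there, with a median of 0.22. Of the 22 further endothelial genes, 18 were higher there, with a median of 0.98, while 10 of 11 erythroid genes were lower, with a median of -0.96. The WT-labelled GFP-on replicates showed no common direction, with 4 of the 10 genes higher on the second array and 6 lower, from -1.97 (Cdh5) to 2.96 (Kdr). The first KO-labelled array was the dim one of its pair, and the part of signal level in this was not tested.

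**Figure D5:**
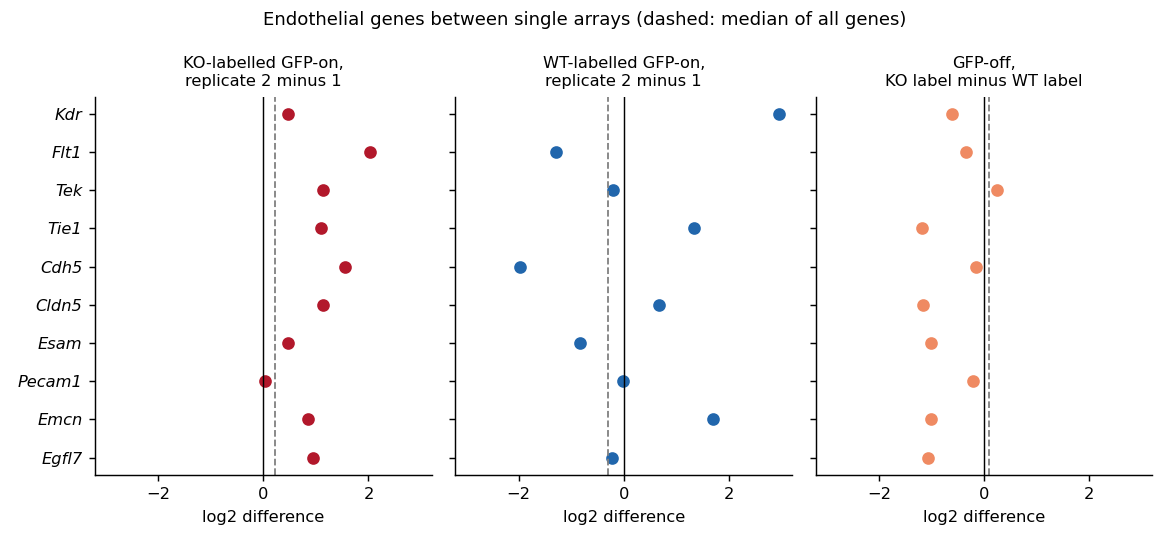
Difference of each endothelial gene between single arrays on the log2 scale: the KO-labelled GFP-on replicates, the WT-labelled GFP-on replicates, and GFP-off cells of the KO label minus the WT label. The dashed line is the median of all genes. All 10 endothelial genes lie above 0 in the first panel, they scatter in the second, and 9 of 10 lie below 0 in the third. Over all genes, 67.9% lay above 0 in the first comparison, 33.4% in the second and 58.6% in the third.

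Genes with a like profile were ranked over the 6 arrays against the median profile of the 4 members measured on all arrays, Kdr, Flt1, Esam and Egfl7. Of 10133 genes, the closest were 9030025P20Rik (r = 0.97), Ier3ip1 (r = 0.96), Tcf15 (r = 0.95), Tti2 (r = 0.95) and Zfp523 (r = 0.95). With 6 arrays and so many genes, this is a description of these arrays.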

How the data were processed

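Cy3-labelled RNA of sorted mouse spinal cord cells was measured on 1-colour Agilent 8x60K mouse arrays, 6 on 1 slide in 1 scan, per the labels' protocols and the file headers. The software that read the spots was Feature Extraction, version 10.5.1.1 per the file headers and version 9.1 per the submitters' processing notes. The deposited processed signal is an intensity that is background-subtracted and detrended within the array and has no scaling between arrays, per the file headers; raw median signal and background intensities were deposited beside it. Spot flags, units of other kinds, were deposited as present or absent. The authors' value table is in log2 and equals the log2 processed signal minus each array's 75th percentile, within 0.01, for 100% of probes.

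From the deposited intensities, log2 signals were averaged over a probe's unflagged spots and the array's 75th percentile over probes was subtracted. Names came from RefSeq accessions in a GRCm38.p6 table; since the files were made on mm9, per their headers, probe coordinates are left out. Probes had to be well above background on 2 or more arrays, and the brightest probe stood for its gene. No spot was saturated. The test was limma's (version 3.58.1, R 4.3.3, lmFit and eBayes, two-sided, Benjamini-Hochberg adjustment over all 14918 genes): 4 group means for the genotype labels, the contrasts within a label and the difference between fractions, and an additive model of label and fraction for GFP-on against GFP-off cells. Permuting the labels of 2 against 2 arrays exactly would reach a p of 0.333 at best, and limma calls genes by pooling the spread over genes. The steps were tested on simulated data. GFP-off labels, 1 array each, were compared as values, with over 2-fold as the limit.

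All 10 endothelial genes are named. Of each comparison list, the 3 genes with the largest difference among those past the threshold, or otherwise the 2 with the largest difference, could be named, together with the 5 genes of the most similar profile and Mir17hg, Mnx1, Chat and Slc18a3. The members and lists were chosen with earlier results of these data known. For same-numbered replicates, the correlation of their deviations from the group means was -0.28 over 10137 genes. With 2 arrays a group, this cannot show whether such replicates share an embryo, litter or batch. The alternatives were other scaling, background correction, filters, probes and covariates, the replicate block, and leaving out each array.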

Additional observations from a re-analysis of the deposited data

How the results depend on the processing

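In GFP-on cells 3 of the 10 endothelial genes differed between the labels; the count was 1 under quantile scaling (Cldn5), 1 under normexp background correction, where Cdh5, Cldn5 and Pecam1 lost their calls and Kdr gained one (limma adjusted p = 0.0144), 1 among genes above background on all 6 arrays (Kdr, limma adjusted p = 0.0229; 4 of the 10 remain to be tested), and 0 with no filter on dim probes, with the additive model and with the spike-in level as a covariate. Of the 7 genes not called there, Tie1 and Emcn turned to -0.35 and -0.16 with array medians, to -0.19 and -0.37 with normexp and to -0.25 and -0.061 in the additive model, and Kdr to 0.52 by its probe on 10 spots (0.91 in the difference between fractions). With the spike-in covariate, Cdh5 was -0.034, Flt1 -3.35, Esam -0.62 and Tie1 -0.40 in this comparison, and Cdh5 1.29, Cldn5 0.71 and Egfl7 0.45 in GFP-on against GFP-off cells. Within the WT label, the 1 call became 0 under quantile scaling, array medians, normexp, no filter, all 6 arrays above background, the mean of all probes, every probe singly and, an alternative chosen after seeing the data, the 75th percentile over all spots. In GFP-off cells the 5 genes over 2-fold apart became 2 under quantile scaling, 1 under normexp and 2 among genes above background on all arrays. The causes were not tested.

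Leaving out 1 array at a time, the number of endothelial genes called ranged from 0 to 1 for GFP-on against GFP-off cells, from 1 to 3 within the WT label and from 0 to 3 for the difference between fractions. In the genotype comparison of GFP-on cells Cdh5 ranged from 2.79 to 4.76, Cldn5 from 1.89 to 3.02 and Pecam1 from -1.51 to -1.48. Kdr ranged there from -4.02 to -1.06, Flt1 from -0.35 to 1.68, Tie1 from -0.45 to 0.89 and Emcn from -0.43 to 1.26. In GFP-on against GFP-off cells Cldn5 ranged from -2.60 to 1.01 and Esam from -0.40 to 1.31, and Cdh5 within the KO label from -0.86 to 0.69. A lone array left in a group is assumed to vary like the other groups.

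With the replicate block, Cdh5 (3.78) and Cldn5 (2.45) kept their calls in GFP-on cells. Pecam1 (-1.49) lost its call (limma adjusted p = 0.0942, up to 0.999 over its alternatives). Kdr (-2.54) gained one (limma adjusted p = 0.00233, up to 0.999 over its alternatives). That fit gave all 10 genes the same SE, 0.68, against 0.46 for Pecam1 and 0.85 for Kdr in the main fit. Over all genes 3609 were called, against 3437 without the block. The crossed numbers as a block, added after seeing the data, called 4 of the 10 genes and 5262 of all genes.

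Over all genes, the 3437 calls between labels in GFP-on cells became 1696 under quantile scaling, 1402 under normexp, 0 with no filter, 0 in the additive model, 9 with the spike-in covariate, 8253 probes when every probe was tested singly, and 905 to 7048 with 1 array left out. The 341 calls of GFP-on against GFP-off cells became 0 under quantile scaling and with no filter, 566 with all arrays above background, 1009 with replicate 1 of each GFP-on group and the GFP-off arrays alone, 2 with the spike-in covariate, and 0 to 1102 with 1 array left out. The 874 calls within the WT label became 0 under quantile scaling, array medians and no filter, 468 with the percentile over spots, and up to 5223 with 1 array left out. The 0 calls within the KO label became 68 under normexp, 135 with all arrays above background and 34 to 981 with 1 array left out, and the 0 calls of the difference between fractions became 1 under normexp and 12 to 1495 with 1 array left out.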
